A study of Mus musculus with 6 samples.

Results

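The proteasome genes of human leukemic cells grown in mice were described here. They were found as the rows of the deposited table whose symbol opens with PSM, a letter from A to G and a digit, which gave 49 of 13892 rows. Of these, 5 encode the inducible parts known as the immunoproteasome (PSMB8, PSMB9, PSMB10, PSME1 and PSME2) and were set apart from the remaining 44. Among the 44, 41 encode constitutive subunits, activators, an inhibitor or assembly factors. The other 3 match by their letters and are no proteasome subunits: PSMC3IP, PSMD5-AS1 and PSMD6-AS2. No row was found for PSMA8 or PSMB11, which were not analysed here.

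The cells came from NSG mice, an immunodeficient strain, with de novo acute myeloid leukemia (AML) driven by NPM1c, a mutant nucleophosmin, in human hematopoietic stem cells. Marrow of 3 moribund mice, 1 from each of 3 transductions, was sorted into bulk leukemic cells (GFP+, CD33+) and leukemic stem cells (LSC; GFP+, CD33+, CD123+). Both populations carried NPM1c, for which GFP served as the marker, and no other genotype or treatment was compared. There were 3 libraries of each population, and a replicate number names the mouse that gave both. The bulk gate said nothing about CD123, so bulk cells may include cells of the LSC type. A mouse here stands for a single transduction, and the sources used here give no age for the mice.

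The proteasome is the protease complex that degrades proteins tagged with ubiquitin. Its core particle is a barrel of stacked rings, with outer rings of alpha subunits that gate the entrance and inner rings of beta subunits, some of which are catalytic. A regulatory particle of ATPases and other subunits sits on the core, recognises ubiquitin, unfolds the substrate and feeds it in. Under interferon, or constitutively in many immune cells, the catalytic subunits PSMB5, PSMB6 and PSMB7 are replaced in newly built cores by PSMB8, PSMB9 and PSMB10, and the activator of PSME1 and PSME2 caps the core. The exchange changes which peptides are produced for MHC class I. Proteasome inhibitors act on the chymotrypsin-like sites of PSMB5 and PSMB8 and are used against blood cancers.

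The libraries held 10669560 to 14933494 reads, of which 27.2% to 70.0% lay on 10 MTRNR2L rows. Bulk replicate 1 had the fewest other reads, 3423878 against 6132431 to 9571165 elsewhere. Levels are given in CPM, read counts scaled to the authors' normalized library size. CPM is not divided by gene length, so levels are compared between libraries and not between genes. All 49 rows passed the filter on low values (at least 1 CPM in at least 3 libraries), and the smallest value behind any of them was 7 reads, for PSMB9 in bulk replicate 1. The gate marker IL3RA, which encodes CD123, stood at 2.01 ± 0.424 CPM in bulk and 108 ± 51.7 CPM in LSC (mean ± SD, n = 3). CD33 was at 8.57 ± 4.31 and 5.34 ± 3.67 CPM.

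Few proteasome genes passed a test between the populations. None of the 49 passed the unblocked limma test in either direction (Benjamini-Hochberg adjusted p of 0.0936 to 0.994), while 4.04% of the 13755 genes tested did (2.71% higher in LSC and 1.33% lower). At an unadjusted p under 0.05 there were 7 of the 49, or 14.3%, against 20.2% of all genes, and voom on recovered reads called none of the 49 either. With the mouse as a block 14 of the 49 had an unadjusted p under 0.05, against 32.5% of all genes. After adjustment 4 of the 49 passed the blocked test, or 8.16%, against 16.0% of all genes. PSMA3, PSMA6 and PSME2 rose in LSC and PSME4 fell, so the share was 3 of 49 higher against 8.25% of all genes and 1 of 49 lower against 7.71%. The blocked fit called none of the 49 without mouse 1 and none without mouse 2, and without mouse 3 it called 7 higher and 2 lower. The median log2 difference (LSC minus bulk) was 0.24 over the 49 and -0.0036 over all genes tested, and single genes lay between -0.95 for PSME4 and 1.05 for PSMB9. The median over the 49 was 0.12 without LSC replicate 1 and also 0.12 without bulk replicate 3. In the authors' deposited table false discovery rates of the proteasome genes ran from 0.427 to 0.997, and no gene of the whole table was under 0.05 (lowest 0.0813). In sorted populations such as these, fewer cells of a type and less RNA per cell cannot be told apart.

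The standard error of a difference was 0.38 at the median over the 49 genes (0.26 to 0.84), and 0.29 with the block. Only 10 of the 49 had a 95% interval, not adjusted for the number of genes, that stayed within 1 log2 unit of no difference on both sides. For the rest the interval reached past a 2-fold difference in at least 1 direction, so a miss of the threshold does not show equal levels. Within mice, 18 of the 49 genes were higher in LSC in each of the 3 mice (36.7%, against 27.3% of all genes) and 9 were lower in each (18.4%, against 25.8%). Groups did not overlap for 12 genes, which is 24.5% against 25.2% of all genes. All LSC libraries were higher for 8 of them (13.2% of all genes) and all were lower for 4 (11.9% of all genes).

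**Figure D1:**
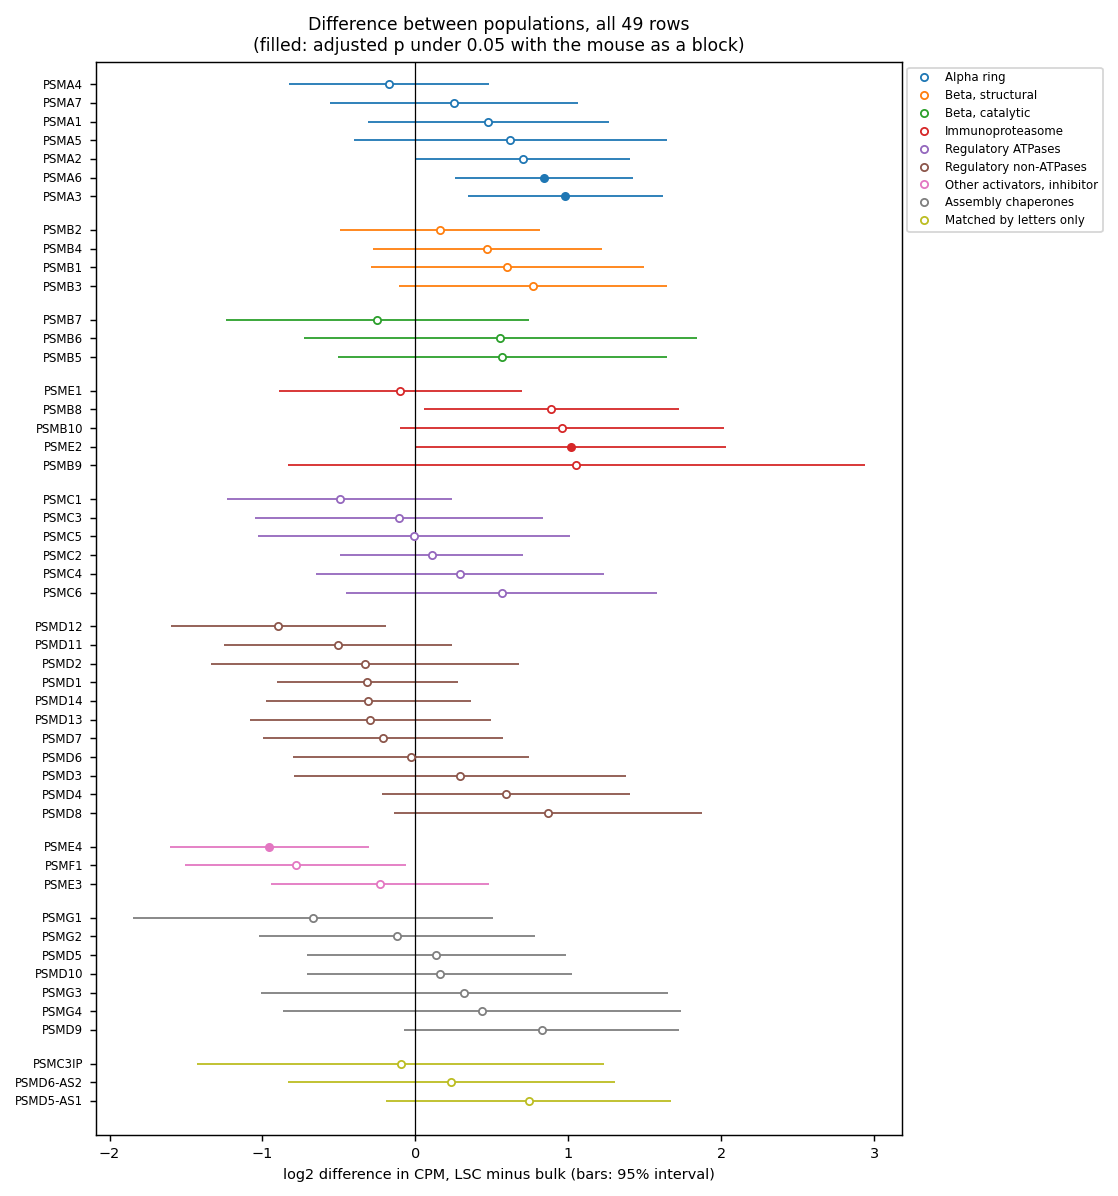
Log2 difference in CPM between LSC and bulk for all 49 rows, ordered within functional groups, with 95% intervals from limma (n = 3 per population). Filled points are the 4 genes with an adjusted p under 0.05 with the mouse as a block; without the block none passed.

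Most alpha subunits, which form the outer rings of the core, were higher in LSC in the average of the libraries. Of the 7, 6 had a positive difference, none passed unblocked and 2 rose with the block, with a median log2 difference of 0.62. Of all genes tested, 49.8% had a positive difference and 8.25% rose with the block. The same shares apply to the functional groups below. PSMA3 read 53.1, 35.4 and 49.3 CPM in bulk replicates 1, 2 and 3, and 95.1, 80.6 and 93.2 CPM in the LSC of the same mice. Every LSC library lay above every bulk library. The log2 difference of PSMA3 was 0.98 in both fits. PSMA3 did not pass unblocked (SE 0.28, limma adjusted p = 0.0936) and was called higher with the mouse as a block (SE 0.21, adjusted p = 0.0175). PSMA6 had the smallest unblocked standard error of the 49, at 46.6, 45.8 and 51.0 CPM in bulk and 85.6, 78.9 and 93.1 CPM in LSC. Its groups were far apart for their spread, and 96.2%, the highest share of the 49, of its sum of squares over the 6 libraries lay between populations. The log2 difference was 0.84 (SE 0.26, adjusted p = 0.111), and PSMA6 rose with the block (adjusted p = 0.0278). PSMA2 also did not overlap, at 22.4, 25.7 and 37.2 CPM in bulk and 51.1, 42.3 and 43.1 CPM in LSC, but did not pass in either fit (adjusted p = 0.244, and 0.104 with the block). PSMA5, PSMA1 and PSMA7 had differences of 0.62, 0.48 and 0.25 with overlapping groups. PSMA4 was the only alpha gene with a negative difference, -0.17 (95% interval -0.82 to 0.48).

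The structural beta subunits PSMB1, PSMB2, PSMB3 and PSMB4 all had positive differences, with a median of 0.54, and none passed in either fit. PSMB3 had the largest, with 9.59, 7.88 and 6.59 CPM in bulk and 18.5, 10.5 and 12.8 CPM in LSC. Its groups did not overlap, and the log2 difference was 0.77 (SE 0.39, adjusted p = 0.304). PSMB1 was at 13.0, 9.91 and 6.65 CPM in bulk and 17.7, 11.5 and 14.7 CPM in LSC, higher in LSC within each mouse but overlapping between groups. PSMB2 differed least, at 76.7 ± 19.3 CPM in bulk and 84.6 ± 12.1 CPM in LSC (log2 difference 0.16, SE 0.29).

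**Figure D2:**
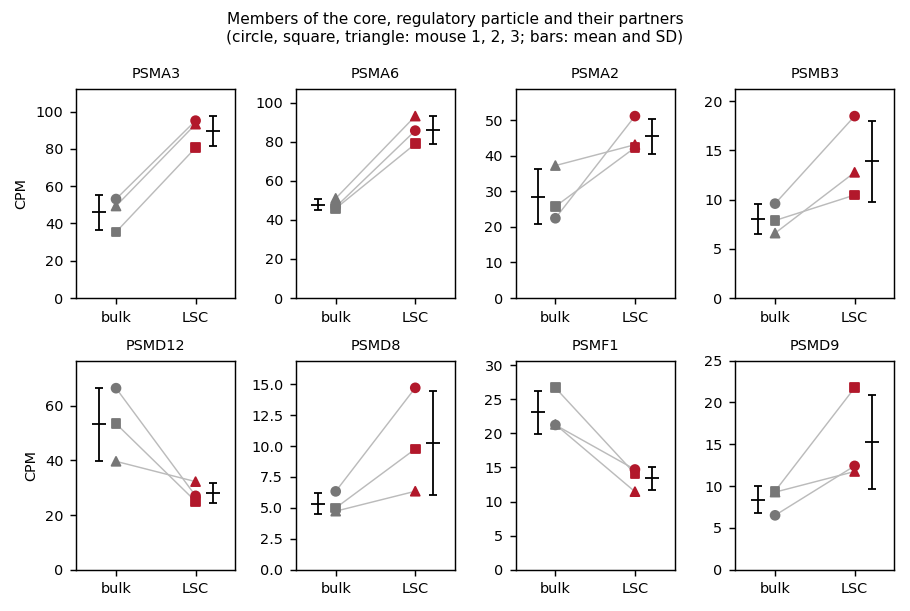
CPM in each library for 8 members, with lines joining the libraries of a mouse and bars for the mean and SD of 3 libraries. PSMA3, PSMA6, PSMA2, PSMB3, PSMD8 and PSMD9 have every LSC library above every bulk library, and PSMD12 and PSMF1 have every LSC library below. All 8 are among the 12 of the 49 rows without overlap (24.5%, against 25.2% of all genes), and the groups of the other 37 rows overlap.

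The constitutive catalytic subunits did not move together. PSMB5, the chymotrypsin-like subunit, was at 6.16, 11.9 and 7.29 CPM in bulk and 15.7, 6.72 and 16.4 CPM in LSC. It was higher in LSC in mice 1 and 3 and lower in mouse 2, and 71.8% of its sum of squares was explained by neither population nor mouse. PSMB6, the caspase-like subunit, stood at 3.08, 6.78 and 3.71 CPM in bulk and 3.18, 9.70 and 8.02 CPM in LSC, nearly level in mouse 1 and higher in mice 2 and 3. PSMB7, the trypsin-like subunit, had 26.9, 56.6 and 23.7 CPM in bulk and 24.8, 43.8 and 19.8 CPM in LSC. It was slightly lower in LSC in each mouse, and 93.7% of its sum of squares lay between mice, with mouse 2 high in both populations. The log2 differences were 0.57 (SE 0.48), 0.56 (SE 0.57) and -0.25 (SE 0.44) for PSMB5, PSMB6 and PSMB7, with adjusted p of 0.537 to 0.789. Without bulk replicate 2 the PSMB7 difference was 0.14, and that of PSMB5 was 0.18 without mouse 1 and 1.26 without mouse 2. The PSMB6 difference ran from 0.24 without LSC replicate 2 to 1.05 without LSC replicate 1.

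Of the 5 immunoproteasome genes, 4 were higher in LSC in each of the 3 mice, against 27.3% of all genes, and PSME1 was not. None passed unblocked, against 2.71% of all genes called higher. With the block 1 rose (PSME2), against 8.25% of all genes. The median log2 difference was 0.96, against 0.16 over the remaining 44 rows. Over the 14 constitutive core genes among those rows it was 0.56, with 12 of the 14 positive. These contrasts were not tested. The immunoproteasome median was 0.85, 0.51 and 0.53 in mice 1, 2 and 3, and 0.59 with 5 CPM added before taking logs.

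PSMB8, the inducible counterpart of PSMB5, was at 8.56, 5.93 and 8.0 CPM in bulk and 15.4, 14.8 and 11.3 CPM in LSC. It was the only immunoproteasome gene whose groups did not overlap. The log2 difference was 0.89 (SE 0.37, 95% interval 0.054 to 1.73), with an adjusted p of 0.222 unblocked and 0.103 with the block. PSMB9, the inducible counterpart of PSMB6, had 1.20, 3.47 and 5.63 CPM in bulk and 1.85, 8.18 and 14.0 CPM in LSC. Mouse 3 was highest and mouse 1 lowest in both populations, so the groups overlapped, and 79.4% of the sum of squares lay between mice. Its log2 difference, 1.05, was the largest of the 49, and in the unblocked fit also the least certain (SE 0.84, adjusted p = 0.513). With the block the SE was 0.44, below the 0.56 of PSMG4, and the adjusted p was 0.139. Within mice 1, 2 and 3 the PSMB9 difference was 0.62, 1.23 and 1.31. The unblocked PSMB9 difference was 1.89 without LSC replicate 1 and 0.43 without bulk replicate 1. PSMB10, the inducible counterpart of PSMB7, stood at 8.56, 8.21 and 15.4 CPM in bulk and 31.9, 11.2 and 22.3 CPM in LSC. The difference was widest in mouse 1 (1.90) and much smaller in mice 2 and 3 (0.45 and 0.53), and it was 0.96 over all (SE 0.47, adjusted p = 0.29). Without mouse 1 it was 0.49.

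PSME1 and PSME2 encode partner subunits of the same activator ring but read differently. PSME2 was at 29.4, 17.2 and 27.0 CPM in bulk and 72.9, 24.5 and 63.5 CPM in LSC. LSC replicate 2 lay inside the range of the bulk libraries, yet it exceeded the bulk library of its own mouse. The log2 difference was 1.02 (SE 0.45, adjusted p = 0.247), and PSME2 rose with the mouse as a block (SE 0.26, adjusted p = 0.0325). PSME1 was at 23.3, 51.4 and 41.2 CPM in bulk and 32.7, 32.9 and 37.2 CPM in LSC, higher in LSC in mouse 1 and lower in mice 2 and 3. Its log2 difference was -0.10 (SE 0.35, 95% interval -0.89 to 0.69), and 0.17 without mouse 2. Whether PSME2 differed from PSME1 in its change was not tested.

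**Figure D3:**
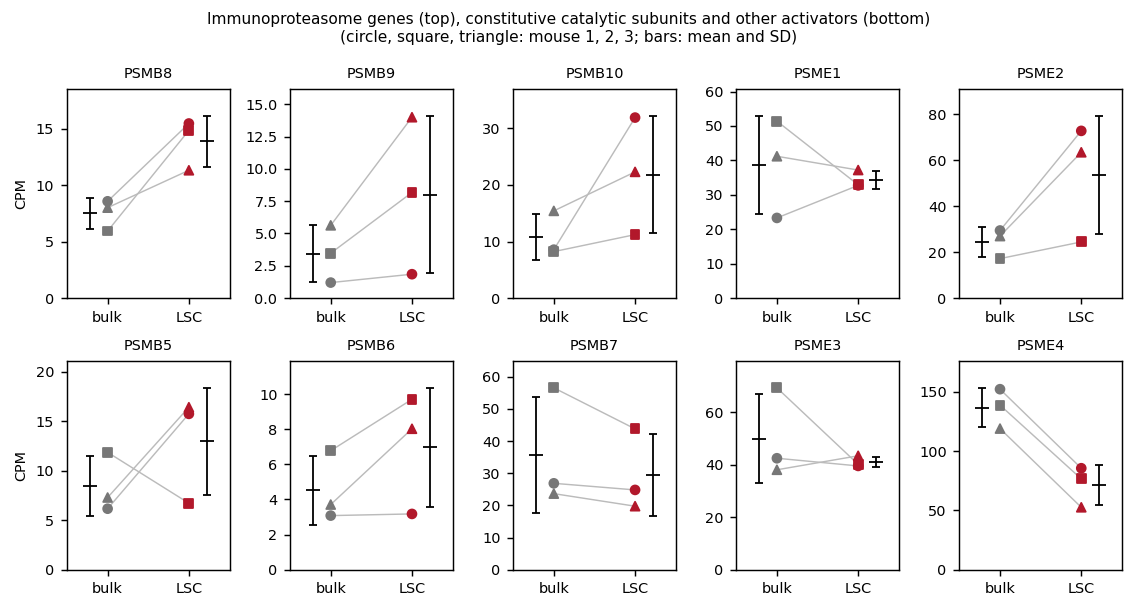
CPM in each library for the 5 immunoproteasome genes (top) and for the constitutive catalytic subunits and other activators (bottom), with lines joining the libraries of a mouse and bars for the mean and SD of 3 libraries. PSMB8, PSMB9, PSMB10 and PSME2 are higher in LSC in all 3 mice, PSMB5 and PSME1 differ in direction between mice, and PSME4 is lower in LSC in all 3 mice.

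Each inducible catalytic gene was next compared with its constitutive counterpart within the same library, since the inducible subunit takes the place of that counterpart in the core. The value is log2 CPM of the inducible gene minus log2 CPM of the other. Its level reflects gene length as well, so only its change between populations is read. PSMB10 minus PSMB7 was -1.65, -2.78 and -0.62 in bulk and 0.36, -1.96 and 0.18 in LSC, higher in LSC in 3 of 3 mice. The groups overlapped through LSC replicate 2, and the means differed by 1.21 (exact permutation test, two-sided, p = 0.3, BH-adjusted p = 0.6). PSMB9 minus PSMB6 was -1.35, -0.96 and 0.60 in bulk and -0.78, -0.25 and 0.80 in LSC. It was also higher in 3 of 3 mice, by 0.57, 0.71 and 0.20, with a mean difference of 0.50 (exact p = 0.5, BH-adjusted p = 0.67). PSMB8 minus PSMB5 was 0.47, -1.0 and 0.13 in bulk and -0.027, 1.14 and -0.54 in LSC. It was higher in LSC only in mouse 2, by 2.14, and lower in mice 1 and 3, with a mean difference of 0.32 (exact p = 0.8, BH-adjusted p = 0.8) that was -0.11 without bulk replicate 2 and -0.15 without LSC replicate 2. PSME2 was also set against PSME3, which forms the nuclear activator ring. Both belong to activators and not to the core, so this pair is no exchange of core subunits. PSME1, the ring partner of PSME2, was not paired, and its own log2 difference was -0.10. PSME2 minus PSME3 was -0.53, -2.01 and -0.50 in bulk and 0.88, -0.71 and 0.55 in LSC, higher in 3 of 3 mice by 1.41, 1.30 and 1.04. The means differed by 1.25 (exact p = 0.3, BH-adjusted p = 0.6). With 3 libraries against 3 the smallest p of this test is 0.1, and 0.25 when signs are flipped within mice, so no such comparison could pass. Within mice, with the mouse as a replicate block, the exact p was 0.25 for PSMB10, PSMB9 and PSME2 and 1 for PSMB8.

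**Figure D4:**
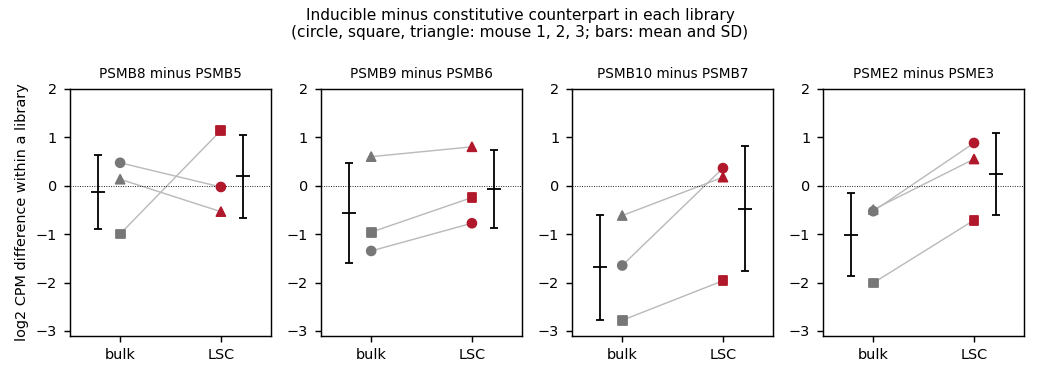
Log2 CPM of an inducible gene minus that of its constitutive counterpart, or of PSME2 minus PSME3, in each library. Lines join the libraries of a mouse and bars give the mean and SD of 3 libraries. The lines of PSMB9, PSMB10 and PSME2 go up in all 3 mice, and that of PSMB8 goes up in mouse 2 alone.

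The 17 genes among the 49 rows that encode subunits of the regulatory particle did not share the sign of the alpha ring. They had 6 positive and 11 negative differences and a median of -0.11. The median ran from -0.29 without bulk replicate 3 to -0.042 without bulk replicate 2, and moved by over 1.5 times also without bulk replicate 1, LSC replicate 3, mouse 2 or mouse 3. None passed in either fit. The ATPases, which unfold the substrate, were divided, with 3 positive and 3 negative and a median of 0.049. That median was -0.050 without bulk replicate 3 and -0.039 without mouse 3. PSMC6 had the most positive difference, 0.57 (SE 0.45), which came mainly from mouse 1, where it was 24.5 CPM in bulk and 54.7 CPM in LSC. In mice 2 and 3 it was 16.0 and 18.4 CPM in bulk and 16.7 and 25.5 CPM in LSC. PSMC1 had the most negative, -0.49 (SE 0.33, adjusted p = 0.43), and was lower in LSC in each mouse, at 50.8, 51.7 and 33.3 CPM in bulk and 32.6, 39.0 and 24.6 CPM in LSC. PSMC5 was nearly level, at 19.0 ± 9.25 CPM in bulk and 17.5 ± 4.17 CPM in LSC, with 87.6% of its sum of squares between mice.

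Of the 11 other regulatory particle genes among the 49 rows, 8 had negative differences, with a median of -0.29. PSMD12, a scaffold subunit of the lid, had 66.4, 53.4 and 39.7 CPM in bulk and 27.0, 25.0 and 32.2 CPM in LSC. Its groups did not overlap, though mouse 3 differed much less than the others. The log2 difference was -0.90 (SE 0.31, adjusted p = 0.151), and with the block it just missed the threshold (adjusted p = 0.0539). Voom with the block on recovered reads called it lower (adjusted p = 0.0461). PSMD11, another lid scaffold, was lower in LSC in each mouse, with a difference of -0.50 (SE 0.33). PSMD14, the deubiquitinase that removes ubiquitin from the substrate, was at 30.1, 30.2 and 24.9 CPM in bulk and 25.9, 21.6 and 21.4 CPM in LSC (difference -0.31, SE 0.30). PSMD1, the large scaffold of the base, did not overlap but differed by only -0.31, at 98.4 ± 14.4 CPM in bulk and 78.8 ± 7.46 CPM in LSC. In the opposite direction, PSMD8 had 6.33, 5.0 and 4.73 CPM in bulk and 14.7, 9.76 and 6.35 CPM in LSC. The PSMD8 groups did not overlap, and the log2 difference was 0.87 (SE 0.45, adjusted p = 0.313). PSMD4, a ubiquitin receptor, was likewise without overlap (difference 0.59, SE 0.36). PSMD6 showed no pattern, since 98.2% of its sum of squares lay with neither population nor mouse.

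The remaining activators and the inhibitor all had negative differences. PSME4, a large single-chain activator tied to acetylated histones and DNA repair, read 152, 139 and 119 CPM in bulk and 85.5, 76.5 and 52.6 CPM in LSC. Every LSC library was below every bulk library, and the difference was similar in mice 1, 2 and 3, at -0.83, -0.86 and -1.18. Over all it was -0.95 (SE 0.29, adjusted p = 0.106), and PSME4 fell with the block (SE 0.20, adjusted p = 0.0158). PSMF1, a regulator first described as a proteasome inhibitor, stood at 21.2, 26.7 and 21.3 CPM in bulk and 14.7, 14.1 and 11.5 CPM in LSC, again without overlap. Its log2 difference was -0.78 (SE 0.32, adjusted p = 0.217, and 0.0874 with the block). PSME3 was at 42.5, 69.3 and 38.1 CPM in bulk and 39.5, 40.1 and 43.4 CPM in LSC. Only bulk replicate 2 stood apart, and the difference of -0.23 became 0.028 without it.

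Assembly factors showed no common direction, with 5 positive and 2 negative of 7 and none past the threshold in either fit. PSMD9, a chaperone of the regulatory base, had 6.51, 9.40 and 9.28 CPM in bulk and 12.4, 21.7 and 11.7 CPM in LSC, without overlap (log2 difference 0.83, SE 0.40, adjusted p = 0.285, and 0.12 with the block). PSMG1, a chaperone of the alpha ring, was at 12.8, 12.4 and 8.44 CPM in bulk and 14.2, 3.80 and 6.13 CPM in LSC, lower in mice 2 and 3 and slightly higher in mouse 1. Its partner PSMG2 followed the mouse, with 96.1% of its sum of squares there, and was at 22.7 ± 6.66 and 21.1 ± 7.32 CPM. PSMG4, with 2.92 ± 1.34 CPM in bulk and 3.77 ± 1.08 CPM in LSC, had the lowest mean CPM of the 49 rows. Its difference of 0.44 (SE 0.58) was -0.13 without mouse 3. PSMD5 stood out in LSC replicate 3, at 64.4 CPM against 28.0 to 36.8 CPM in the other 5 libraries.

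The 3 rows matched by letters alone did not pass in either fit. PSMC3IP encodes a recombination factor and was at 9.11 ± 5.15 CPM in bulk and 8.0 ± 3.69 CPM in LSC. PSMD5-AS1, a noncoding gene beside PSMD5, had 14.0, 14.1 and 24.4 CPM in bulk and 20.7, 23.3 and 46.5 CPM in LSC (log2 difference 0.74, SE 0.42, adjusted p = 0.349, and 0.0863 with the block). Like PSMD5 it was highest in LSC replicate 3. PSMD6-AS2 was at 15.9, 10.8 and 40.4 CPM in bulk and 22.1, 21.4 and 23.8 CPM in LSC, with bulk replicate 3 apart from the rest. The sources used here do not say whether counting used strand, and without it reads of an antisense gene and its partner cannot be told apart. Several proteasome genes also have processed pseudogenes that could take or lend reads.

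**Figure D5:**
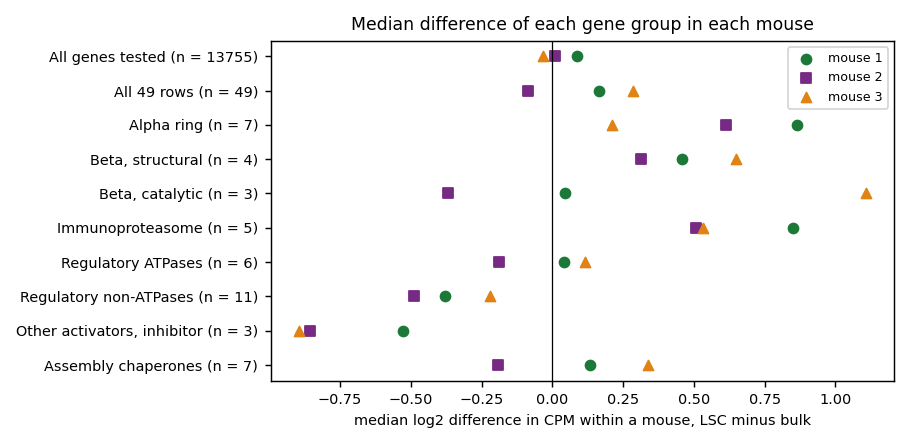
Median log2 difference between LSC and bulk within each mouse, for each functional group and for all genes tested. The alpha ring, the structural beta subunits and the immunoproteasome lie above 0 in all 3 mice, and the regulatory non-ATPases and the group of PSME3, PSME4 and PSMF1 lie below 0 in all 3.

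Set side by side, the functional groups kept their signs within mice to different degrees. The median difference of the 7 alpha genes was 0.86, 0.61 and 0.21 in mice 1, 2 and 3, and that of the 4 structural beta genes 0.46, 0.31 and 0.65. For the 11 regulatory non-ATPases it was -0.38, -0.49 and -0.22. The constitutive catalytic genes, the ATPases and the assembly factors changed sign between mice, with mouse 2 lowest in each. Over the 49 rows the population took 24.7% of the sum of squares at the median and the mouse 38.2%, close to the 26.8% and 43.8% over all genes. The share of the mouse has more degrees of freedom than that of the population, so the 2 shares are not compared with each other. Differences between functional groups were not tested.

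Other genes around the proteasome were taken from lists. Of all genes tested, 2.71% were called higher unblocked and 8.25% with the block, which are the shares to set beside each list. Of 10 partners outside the PSM symbols none passed unblocked and 2 rose with the block. POMP, which matures the core and is needed for immunoproteasome assembly, was at 28.8 ± 2.42 CPM in bulk and 59.3 ± 16.9 CPM in LSC, without overlap (log2 difference 1.01, adjusted p = 0.114, and 0.0364 with the block). AKIRIN2, which brings proteasomes into the nucleus, was at 17.0 ± 4.87 and 41.5 ± 18.2 CPM (adjusted p = 0.167, and 0.033 with the block). Of 6 genes that control proteasome genes 1 rose, NGLY1, the deglycosylase that acts on the transcription factor NFE2L1, from 104 ± 23.4 to 337 ± 85.2 CPM (log2 difference 1.69, SE 0.30, adjusted p = 0.0173). NFE2L1 itself had a difference of 0.41 (adjusted p = 0.567). The NGLY1 call was lost without bulk replicate 1 or 2, LSC replicate 1 or 3, or either of mice 1 and 2 (adjusted p of up to 0.21), and without the trend in eBayes. None of 18 ubiquitin and shuttle genes passed in either fit (1 at an unadjusted p under 0.05).

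Peptide trimming enzymes finish the products of the proteasome. Of 9, 2 had positive and 7 had negative differences, with a median of -0.27. Lower values in LSC in each of the 3 mice were read for 6 of the 9, against 25.8% of all genes. Among the 9, 1 rose, LAP3, an interferon-inducible aminopeptidase, from 17.6 ± 2.16 to 49.4 ± 16.1 CPM (log2 difference 1.45, SE 0.33, adjusted p = 0.0456). Unblocked, the LAP3 call was lost on leaving out any single library or mouse (adjusted p of up to 0.335). It was also lost under voom (adjusted p = 0.0599) and without the trend in eBayes (0.102). With the block it was lost without mouse 1 (limma adjusted p = 0.111) or without mouse 2 (0.0534). Of 8 genes of MHC class I loading, 1 rose unblocked, B2M (adjusted p = 0.0176), against 2.71% of all genes. With the block 4 rose, against 8.25% of all genes, which added TAP1, TAPBP and TAPBPL. TAP1, the peptide transporter gene that neighbours PSMB9, was at 13.0 ± 3.79 and 29.8 ± 7.69 CPM without overlap (log2 difference 1.21, adjusted p = 0.103). The B2M call was lost without bulk replicate 2, LSC replicate 1 or 3, or mouse 1 (adjusted p of up to 0.186), and without the trend in eBayes (0.0741). Of 15 genes that act upstream of immunoproteasome genes 2 rose unblocked and 6 with the block, against 2.71% and 8.25% of all genes. IRF8 rose from 34.9 ± 5.73 to 826 ± 228 CPM and STAT2 from 63.4 ± 10.7 to 212 ± 53.0 CPM (log2 differences 4.54 and 1.73, adjusted p = 0.00048 and 0.0139). IRF8 also stands in the list of plasmacytoid dendritic cell markers described next. Unblocked, the STAT2 call was lost without any 1 of the mice (adjusted p of up to 0.141) and without the trend in eBayes (0.0637). IRF1, a direct activator of PSMB9 and TAP1, was at 51.3 ± 24.2 and 98.6 ± 52.9 CPM (adjusted p = 0.376, and 0.0391 with the block). NLRC5, the transactivator of MHC class I genes, had a negative difference of -0.86 (adjusted p = 0.313).

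Some markers of other cell types and of cycling cells differed between the populations. Of all genes tested, 2.71% were called higher and 1.33% lower unblocked, and 8.25% and 7.71% with the block. Of 18 plasmacytoid dendritic cell markers, which include the gate marker IL3RA, 16 were higher in LSC, and their summed level was 198 to 517 CPM in bulk and 2605 to 4596 CPM in LSC. Of 11 cycling markers 4 were lower, with sums of 3312 to 6770 CPM in bulk and 823 to 1418 CPM in LSC. Of 8 monocyte markers 1 was lower (3610 to 5743 against 1007 to 2688 CPM), of 9 B cell markers 2 were lower (164 to 1133 against 137 to 218 CPM), and of 9 erythroid markers 3 were lower (215 to 967 against 63.2 to 260 CPM). None of 11 granule (145 to 4416 against 88.6 to 1347 CPM), 8 conventional dendritic (47.5 to 52.4 against 71.6 to 86.5 CPM) and 7 T and NK cell markers (80.1 to 110 against 109 to 140 CPM) passed unblocked. With the mouse as a block, 17 plasmacytoid and 3 conventional dendritic cell markers were higher. In that fit 8 cycling, 6 monocyte, 8 erythroid and 7 granule markers were lower, 4 B cell markers were lower and 1 higher, and no T and NK cell marker passed. No marker found in the table lacked reads in a whole population. The part of these cells in the differences of the proteasome genes was not tested.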

How the data were processed

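RNA of 6 sorted populations was amplified with a NuGEN Ovation kit, per the labels' protocols. The tools and build in the submitters' processing notes are RSEM, Bowtie2, edgeR and hg19, without tool versions or roles. Mouse, the host, is the labelled organism, while symbols and build are human. Sample columns of the table that the authors deposited hold log2 CPM, and all 6 columns share 1 floor. The deposited table also holds, per the file headers, the authors' log2 fold change (bulk minus LSC), a likelihood ratio score, p-values and false discovery rates. CPM in the text is the value above that floor, and it equals whole reads within 0.1 of a read for 100% of values up to 100 reads. Amplified reads are not independent molecules, so read numbers bear on counting error only.

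The filter asked for 1 CPM or more in 3 or more libraries and kept 13755 of 13892 genes. These were tested two-sided on the deposited log2 values with limma 3.58.1 (R 4.3.3), using eBayes with its trend option, with Benjamini-Hochberg adjustment over all of them and a threshold of 0.05. As an alternative, voom was run on reads recovered from the steps of the low values and called 318 genes higher and 158 lower. Pairing is by animal, as the labels give the mouse of each library, and paired libraries deviated together (correlations of 0.33, 0.35 and 0.30). The blocked value is given where it changed a call. Intervals are 95% and unadjusted. Named genes are the immunoproteasome genes, PSMB5, PSMB6, PSMB7, PSME3 and PSME4, members called in either fit, the 2 largest moderated statistics of each functional group, the extremes of mean CPM, rows matched by letters alone and up to 4 called genes of each pathway list. Other genes were named after their values were seen. Members and lists were chosen with earlier results of these data known. Alternatives were other pseudocounts, filters, scalings, voom, the block, and leaving out each library or mouse. For the differences between 2 genes within a library, no mouse was left out. The block on 2 mice was added after seeing the data. The fitting code was tested on simulated data. The reference at hand is of mouse, so no sequences or coordinates are given.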

Additional observations from a re-analysis of the deposited data

How the results depend on the processing

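The number of proteasome genes called was 0 in each direction in the unblocked fit and in 20 of 23 alternatives, including every fit that left out 1 library or, unblocked, 1 mouse (0 to 0). The exceptions used the mouse as a replicate block: 3 higher and 1 lower with the block, 3 and 2 with voom and the block, and 7 and 2 with the block without mouse 3. Over all genes the calls ran from 37 to 1747 higher and from 0 to 1567 lower, against 373 and 183, and were 1135 and 1060 with the block, 1216 and 1217 with voom and the block, and 197 and 54 without the trend in eBayes. Lower calls were 302 and 280 with pseudocounts of 1 and 5 CPM. With the mouse as a block in all 6 libraries, limma changed the call of PSMA3, PSMA6, PSME2 and PSME4 and of no other proteasome gene. Voom with the block also called PSMD12, and the block without mouse 3 also called PSMD12, PSMA2, PSMB8, PSMB10 and PSMD9. With the block in all 6 libraries, limma left the log2 differences of the 49 unchanged, and their median standard error was 0.29 against 0.38 unblocked. Beyond this, the cause of the shifts was not tested. Some differences reversed when libraries were left out: PSMB7 (-0.58 to 0.14), PSMC3IP (-0.65 to 0.31, with 0.036 under voom and 0.028 without mouse 2), PSMD6-AS2 (-0.18 to 0.78, with -0.14 without mouse 2), PSME1 (-0.43 to 0.17), PSME3 (-0.45 to 0.043) and PSMG4 (-0.13 to 0.77). The alternatives for the exchange differences left out single libraries and no whole mouse. The difference of PSMB8 and PSMB5 ran from -0.15 to 0.69, and within mice 1, 2 and 3 it was -0.50, 2.14 and -0.67. That of PSMB9 and PSMB6 ran from 0.059 to 1.08 and that of PSMB10 and PSMB7 from 0.66 to 1.95. The difference of PSME2 and PSME3 ran from 0.75 to 1.73. The median over the 49 ran from 0.12 to 0.33 and that over the regulatory particle from -0.29 to -0.042. Median differences kept their sign in all 23 alternatives for the alpha ring (0.42 to 0.77), the structural beta genes (0.40 to 0.61), the immunoproteasome (0.59 to 1.10) and the regulatory non-ATPases (-0.38 to -0.15). Those of the ATPases and the assembly factors changed sign without mouse 3 (-0.039 and -0.13), and that of the ATPases also without bulk replicate 3 (-0.050). With 3 mice and standard errors near 0.38, differences under 1 log2 unit were mostly not detectable without the block. Some larger ones did not pass unblocked either, such as PSMB9 (1.05), PSME2 (1.02) and TAP1 (1.21), while LAP3 (1.45) did.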
